A study of Mus musculus with 2 samples.

Results

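Corneal epithelial cells with an interferon response were the 165 cells, of 4125 corneal cells and 6188 kept cells in all, with the highest share of UMIs from Ifit1, Ifit3, Isg15 and Rsad2. A UMI (unique molecular identifier) marks 1 captured RNA molecule. The cells came from CycB1-GFP mice, whose green fluorescent reporter follows cyclin B1, a protein of dividing cells. The corneal epithelium was peeled off after Dispase, dissociated with trypsin, and sorted for live GFP-positive cells, so the sort favoured cycling cells. All cells shared this genotype and treatment, and the series holds 1 group in 2 replicates, read as single-cell 3' RNA libraries. The labels give neither the age of the mice nor the number of animals per library, so cells of 1 animal and a state of cells cannot be told apart. The barcodes carried 2 suffixes, called library 1 and library 2 here, with no link to the labelled replicate numbers.

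The kept barcodes had 500 or more detected genes and a mitochondrial share of UMIs below 20%. A cell counted as corneal with at least 5 UMIs of Krt12 and Krt15 and a Krt12 share of them above 0.8. Krt12 is the keratin of corneal epithelium and Krt15 a basal and limbal keratin. The top 4% of corneal cells of both libraries pooled formed the members, and each was compared with the other corneal cells of its own library. The members were thus selected on the measured UMIs of these 4 genes, which are therefore described and not tested. Any gene that varies with them from cell to cell differs through this choice, so the tests below list which RNAs accompanied the 4 genes. Genes of the X and Y chromosomes were left out.

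Interferons are secreted proteins that bind receptors on neighbouring cells and, through JAK kinases, activate transcription factors. These enter the nucleus, bind a DNA motif called the interferon-stimulated response element, and switch on a broad set of genes that block virus entry, translation and replication. Among them, Eif2ak2 (PKR) phosphorylates the translation factor eIF2 alpha, which is also the entry point of the integrated stress response, a programme of amino acid supply and adaptation run by ATF4. In the cornea, epithelial interferon signalling is known as a first line of defence against herpes simplex and other viruses.

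Promoter letters of genes called higher in the members are shown first, since the 2 lists compared by motif, interferon and stress, each hold genes called higher. The windows run from 250 bases before to 50 after the start site and come from RefSeq for build GRCm38.p6. Of 64 named genes that were higher, 47 had a window. The interferon-stimulated response element was searched as GAAA and GAAA separated by any 2 letters, and the C/EBP-ATF composite element of ATF4 targets as TGATGNAA, each on both strands. The 4 windows are those of Ifit1bl1 (chr19:34601919-34602218, minus strand), Bst2 (chr8:71537423-71537722, minus), Chac1 (chr2:119350992-119351291, plus) and Nupr1 (chr7:126625421-126625720, minus). These windows were chosen among those that hold the motif, so a match in each was fixed in advance. The antiviral genes Oasl1, Slfn2 and Ifi44, with larger changes than Bst2, had 0 interferon elements in their windows. Capitals mark the matches: 1 interferon element in Ifit1bl1, 2 overlapping ones in Bst2, and 1 composite element each in Chac1 and Nupr1.
Ifit1bl1: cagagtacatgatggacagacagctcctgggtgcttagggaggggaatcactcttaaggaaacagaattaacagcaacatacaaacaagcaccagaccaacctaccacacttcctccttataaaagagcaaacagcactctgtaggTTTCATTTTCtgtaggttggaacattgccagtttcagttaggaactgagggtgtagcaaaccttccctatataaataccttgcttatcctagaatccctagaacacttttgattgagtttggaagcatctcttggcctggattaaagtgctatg
Bst2: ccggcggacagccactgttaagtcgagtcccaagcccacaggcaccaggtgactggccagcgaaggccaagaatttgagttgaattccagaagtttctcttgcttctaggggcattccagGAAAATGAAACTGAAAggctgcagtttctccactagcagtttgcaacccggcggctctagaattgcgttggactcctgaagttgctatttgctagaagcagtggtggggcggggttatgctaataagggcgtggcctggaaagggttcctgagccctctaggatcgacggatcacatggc
Chac1: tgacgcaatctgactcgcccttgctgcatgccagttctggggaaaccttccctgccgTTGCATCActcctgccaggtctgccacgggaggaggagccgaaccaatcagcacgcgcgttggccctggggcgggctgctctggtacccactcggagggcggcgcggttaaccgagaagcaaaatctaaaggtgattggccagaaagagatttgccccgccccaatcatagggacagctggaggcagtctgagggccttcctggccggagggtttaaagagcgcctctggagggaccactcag
Nupr1: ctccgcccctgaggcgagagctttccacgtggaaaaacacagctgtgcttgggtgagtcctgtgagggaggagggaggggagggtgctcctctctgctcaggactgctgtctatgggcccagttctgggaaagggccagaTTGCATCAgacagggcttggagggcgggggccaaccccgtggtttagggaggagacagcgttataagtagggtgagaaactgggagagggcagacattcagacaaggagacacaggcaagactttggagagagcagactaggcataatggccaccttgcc
The interferon element was found in 10 of 23 named genes of the interferon lists with a window (43.5%), and in 3.99% of 27025 genes, or 3.44% of 32851 windows. The composite element was found in 3 of the 5 named genes of the integrated stress response (60.0%) and in 4.51% of genes, or 3.97% of windows. It was also found in 3 of the 23 interferon genes (13.0%), namely Gbp3, Ifitm3 and Ifit1bl1, the latter in another of its start site windows than the printed one. Of 5 stress genes 0 held the interferon element. Of 6 named surface and wound genes with a window, 0 held either motif. A match describes letters and not binding, and a window without one says nothing of sites elsewhere.

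The members were unevenly split between the libraries. Library 1 held 36 of its 2304 corneal cells (1.56%, 95% interval 1.10 to 2.16%) and library 2 held 129 of 1821 (7.08%, 5.95 to 8.36%). Intervals of shares here are exact binomial ones, those of UMI levels exact Poisson ones, and both cover counting error only. The summed members held 142901 UMIs in library 1 and 827606 in library 2, against 13705048 and 10719127 in the other corneal cells. The median member had 3905 UMIs in library 1, where other corneal cells had 5812, and 6355 in library 2, where they had 6375.5. The median mitochondrial share was 3.97% against 2.48% in library 1 and 2.78% against 3.17% in library 2. With the share of the selecting genes taken at 2000 UMIs per cell, library 1 gave 34 of 2039 corneal cells (1.67%) and library 2 gave 113 of 1622 (6.97%). With a mitochondrial limit of 10% they gave 31 of 2175 (1.43%) and 126 of 1731 (7.28%). Only 5 barcode sequences occurred in both libraries, and none belonged to a member.

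The selecting genes set the scale of the response. Levels are given in CPM, the UMIs of a gene scaled to a common total of UMIs in each sum of cells. Isg15, a ubiquitin-like modifier, stood at 1169 in members and 53.4 in other corneal cells of library 1, and at 1421 and 116 in library 2. Ifit1, which binds foreign RNA caps, stood at 483 and 8.03 CPM in library 1 and 381 and 28.7 in library 2. Ifit3, its partner, had 336 and 5.33, then 555 and 26.3. Rsad2 (viperin) makes a chain-terminating nucleotide and had 84.0 and 0.58, then 238 and 3.92. Isg15 weighed most in the choice: without it 115 of the 165 members were chosen again, against 146 without Ifit3, 150 without Ifit1 and 161 without Rsad2. A member had a median of 5.5 UMIs of the 4 genes in library 1 (1 to 33) and 12 in library 2 (2 to 64). Fewer than 3 such UMIs were found in 8 members of library 1 and 4 of library 2. The last cells inside the threshold had 1183, 1183 and 1176 CPM of the 4 genes, and the first outside had 1171, 1160 and 1152.

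Krt5, Aldh3a1 and Pax6, corneal markers that the rule did not use, were present in the members at levels near those of other corneal cells. Krt5, the basal keratin, stood at 5500 CPM in members and 5339 in other corneal cells of library 1, and at 6566 and 5866 in library 2. Aldh3a1, the main corneal crystallin, stood at 8166 and 7436, then 10261 and 11086. Pax6, the master factor of eye development, stood at 707 and 544, then 381 and 472. Markers of immune cells and keratocytes were nearly absent. Of 10 defining immune markers (Ptprc, Cd52, Tyrobp, Fcer1g, Lyz2, Csf1r, Cd207, Cd3e, Siglech and Cd74), all 10 were at 0 in members of library 1. In library 2, 9 were at 0 and Cd74 had 2 UMIs. Over the wider list of 23 immune genes the summed level was 357 CPM in members and 169 in other corneal cells of library 1, and 201 and 52.2 in library 2. In the members Bst2 alone had 238 and 185 of these. Bst2 is itself an interferon-induced gene. All 6 keratocyte markers (Kera, Lum, Dcn, Col1a1, Col1a2 and Col3a1) were at 0 in the members of both libraries. Conjunctival markers were not absent: the listed 9 genes stood at 567 CPM in members and 634 in other corneal cells of library 1, and at 1098 (1028 to 1172) and 657 in library 2. Of the 4 defining ones, Krt13, Krt4, Krt19 and Krt8, members held 21 UMIs in library 1, all of Krt13, and 350 in library 2, of which 301 were Krt13. The part of conjunctival RNA in the results was not tested. Of the 4 limbal markers, Krt15, Gpha2, Ifitm3 and Cd63, members held 203 UMIs in library 1 and 1401 in library 2. Ifitm3, also on the antiviral list, made up 193 and 1154 of these. Other corneal cells held 14838 and 8413, of which 10925 and 4991 were Ifitm3.

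Across 10567 tested genes, 223 were higher in members (2.11% of genes tested) and 3 were lower (0.0284%), by edgeR's quasi-likelihood test with library as a block and a Benjamini-Hochberg threshold of 0.05. Of the 223, 192 had the same sign in each library. The median log2 fold change over all genes tested was -0.03. Member sums held only 142901 and 827606 UMIs, so a fall of a gene at low level was harder to call than a rise. The fit rests on 4 sums of cells with 1 residual degree of freedom. DESeq2 called 74 higher (0.7%) and 0 lower (0.0%, with 12 at an unadjusted p under 0.05). Without the library block edgeR called 81 higher and 0 lower, with 310 lower before adjustment. The counts thus depend on the model, and genes that kept their call are marked below.

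Interferon RNA itself was almost undetected. The 21 ligand genes of the list (interferon alpha, beta, lambda, gamma and relatives) had 0 UMIs in members of library 1 and 1 UMI in members of library 2. Other corneal cells held 4 and 2. None could be tested. At this depth, a source of interferon among the members was not detectable.

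Among 12 tested receptor and signalling genes none was lower, and the list median was 0.56, with 0.03 in library 1 and 0.68 in library 2. Stat2 and Irf9, transcription factor genes of the signalling pathway, were higher. Stat2 (ENSMUSG00000040033, chromosome 10, 128270559 to 128292849, plus strand) had 42.0 CPM in members and 11.97 in other corneal cells of library 1, and 79.7 and 18.9 in library 2. Its log2 fold change was 2.07 (SE 0.32, edgeR adjusted p 1.84e-08). Irf9 had 154 and 36.9, then 118 and 48.5 CPM (1.60, SE 0.26, adjusted p 2.36e-07). Members stood above other cells in each library for both genes, and both kept their call under each of 14 alternative settings, DESeq2 and the fit without the block included. The receptor genes Ifnar1 and Ifnar2, named after their values were seen, had log2 fold changes of 0.31 (SE 0.49) and 0.20 (SE 0.52) and did not pass.

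Among the interferon regulatory factors, 2 of 6 tested were higher, with a list median of 0.84. Irf7 (ENSMUSG00000025498, chromosome 7, 141262706 to 141266481, minus strand), the factor that amplifies interferon production, had 224 CPM in members and 16.6 in other cells of library 1. In library 2 it had 268 and 45.2. Its log2 fold change was 3.04 (SE 0.25, edgeR adjusted p 6.16e-30), and it had a UMI in 16 of 36 and 91 of 129 members. Without the block Irf7 did not pass. Irf1, a factor shared with interferon gamma responses, had 63.0 and 36.6, then 111 and 41.6 CPM (1.31, SE 0.28, adjusted p 0.00019).

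Sensors of foreign nucleic acid followed the same pattern. Of 14 tested, 7 were higher (Zbp1, Dhx58, Ifih1, Eif2ak2, Ddx58, Trim25 and Adar), none was lower, and the list median was 0.97. Zbp1, which detects Z-form RNA and can start necroptosis, had 147 CPM and 12.9 in library 1 and 172 and 20.2 in library 2 (log2 fold change 3.26, SE 0.27, edgeR adjusted p 3.04e-30). Dhx58 (LGP2) had 63.0 and 4.45, then 67.7 and 11.8 CPM (2.89, SE 0.37). Ifih1 (MDA5), a sensor of long double-stranded RNA, had 70.0 and 25.5, then 133 and 41.9 (1.66, SE 0.27). Eif2ak2, the kinase that connects both programmes in textbooks, had 112 and 39.9, then 169 and 60.8 (1.52, SE 0.26, adjusted p 8.77e-07). Of the 7 kinases and partners listed around eIF2 alpha, it was the only one called, with a list median of 0.13. The adaptor Mavs and the sensor gene Mb21d1 (cGAS), named after their values were seen, had log2 fold changes of 0.10 (SE 0.59) and 0.32 (SE 0.39) and did not pass. Zbp1, Ifih1 and Eif2ak2 kept their call under all 14 alternative settings.

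The antiviral effectors held the largest group of calls. Of 45 tested, 27 were higher and none was lower, and the list median was 2.03, with 2.09 in library 1 and 1.93 in library 2. The summed list stood at 6018 CPM in members (5623 to 6434) and 2929 in other cells of library 1, and at 8909 (8707 to 9115) and 3157 in library 2. DESeq2 called 23 of the list and the fit without the block 14. Mx1 (ENSMUSG00000000386, chromosome 16, 97447035 to 97462907, minus strand), a GTPase that traps viral nucleocapsids, had 11 UMIs in members and 11 in the far more numerous other cells of library 1, or 77.0 and 0.80 CPM. In library 2 it had 39.9 and 1.68 CPM (log2 fold change 5.31, SE 0.56, edgeR adjusted p 3.07e-18). Only 3 and 16 members held an Mx1 UMI, so its level is imprecise. Its levels in other cells lay below what the low-count filter asks, so Mx1 was tested only through its level in members.

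Other effectors were mostly found in more members of library 2. Slfn2, of the Schlafen family, had 147 CPM and 12.8 in library 1 and 344 and 34.9 in library 2 (log2 fold change 3.42, SE 0.27, edgeR adjusted p 2.24e-34), with a UMI in 88 of the 129 members of library 2. Oasl1, which represses Irf7 translation, had 21.0 and 4.16, then 83.4 and 4.94 CPM (3.77, SE 0.39). Ifi44 had 28.0 and 4.82, then 123 and 12.3 (3.25, SE 0.32). Bst2 (tetherin), which holds budding virus at the membrane, had 238 and 25.5, then 185 and 36.3 (2.72, SE 0.25, adjusted p 6.11e-24). In all 4 genes members stood above other cells in each library, but in library 1 on only 3 member UMIs for Oasl1 and 4 for Ifi44. Ifitm3, a block to virus entry that is also on the limbal marker list, had 1351 and 797 CPM, then 1394 and 466 (1.22, SE 0.16). It had a UMI in 113 of 129 members of library 2. Ifit1bl1 and Ifit3b also passed, at 4.50 (SE 0.33) and 3.69 (SE 0.29). They are near copies of selecting genes, so shared reads make their values uncertain.

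**Figure D1:**
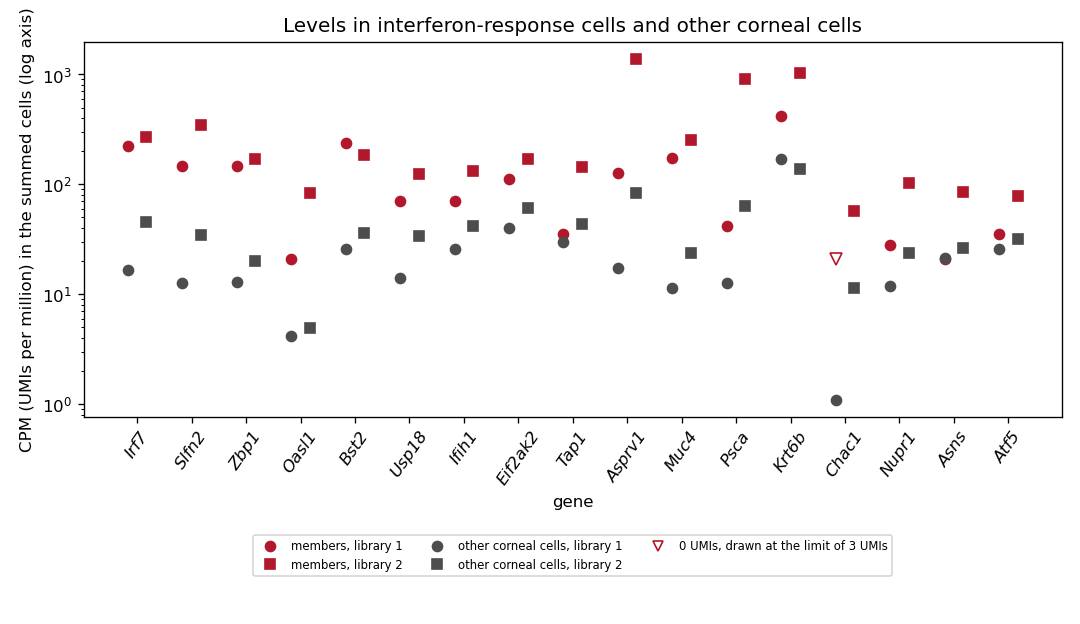
Levels of 17 genes, in CPM of the summed cells on a log axis, for members (red) and other corneal cells (grey) of library 1 (circles) and library 2 (squares). Interferon genes such as Irf7, Zbp1 and Bst2 stand apart in each library, while Tap1 lies close in library 1 (35.0 and 30.1, on 5 member UMIs). Among stress genes Asns coincides there (21.0 and 21.2, on 3 member UMIs) and Nupr1 stands at 28.0 and 11.9 (on 4). Chac1 had 0 UMIs in members of library 1, drawn as an open triangle at the limit of 3 UMIs.

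Genes of ISG15 conjugation and ADP-ribosylation were higher for 8 of 9 tested, with a list median of 1.74. Usp18, the enzyme that removes ISG15 and also damps the interferon receptor, had 70.0 CPM and 14.2 in library 1 and 123 and 33.6 in library 2 (log2 fold change 2.02, SE 0.28, edgeR adjusted p 1.12e-10). Parp9 had 98.0 and 29.6, then 132 and 38.5 CPM (1.81, SE 0.27), and Parp14 had 56.0 and 24.7, then 134 and 32.1 (1.91, SE 0.28). Herc6, the ligase of ISG15 in mouse, had 14.0 and 5.18, then 58.0 and 11.3 (2.29, SE 0.39), on 2 member UMIs in library 1. Dtx3l, the partner of Parp9, passed at 1.74 (SE 0.32). DESeq2 called 3 of the 9 and the fit without the block 4. Herc6 lost its call in both and Dtx3l with DESeq2, and each lost it with thinned cells, while Parp9 and Parp14 kept theirs under all 14 alternative settings.

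GTPases known from interferon gamma responses were also higher. Only 8 of the 16 listed had enough UMIs to be tested, a filter that favours genes that are high in members, and these 8 all passed (median 3.09). Gbp2 had 28.0 CPM and 8.03 in library 1 and 118 and 10.8 in library 2 (log2 fold change 3.19, SE 0.32, edgeR adjusted p 1.17e-20). Its 28.0 CPM rested on 4 member UMIs. Igtp had 35.0 and 3.36, then 43.5 and 6.06 (2.99, SE 0.42). Ifi47 had 1 UMI in members of library 1, where other cells had 1.97 CPM, and 58.0 and 5.50 CPM in library 2 (3.33, SE 0.41). Gbp3 and Gbp9 passed at 3.57 (SE 0.61) and 3.62 (SE 0.94). Gbp9 had 1 member UMI in library 1. Its levels in other cells, 0.073 and 1.40 CPM, lay below those of Mx1, so Gbp9 too was tested only through its level in members. These families hold close copies, so reads may be split between members.

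Class I antigen presentation was called for 14 of 19 tested genes, with a list median of 1.20, 0.77 in library 1 and 1.29 in library 2. The summed list stood at 2323 CPM (2080 to 2587) against 1472 in library 1 and 4866 (4717 to 5018) against 2244 in library 2. Tap1, which carries peptides into the endoplasmic reticulum, had 35.0 and 30.1 CPM in library 1 and 144 and 43.8 in library 2 (log2 fold change 1.48, SE 0.28, edgeR adjusted p 1.21e-05). Tap2, its partner, had 42.0 and 16.1, then 62.8 and 23.9 (1.44, SE 0.32). The non-classical H2-T23 had 98.0 and 21.2, then 95.5 and 44.7 (1.44, SE 0.28), and H2-Q4 and H2-Q6 passed at 1.45 (SE 0.32) and 2.15 (SE 0.44). DESeq2 called 2 of the 19 and the fit without the block 3. Of the class II list 1 gene was tested and none was called. No chemokine of 4 tested was called. Cxcl10, named after its values were seen, had 28.0 CPM and 2.48 in library 1, on 4 member UMIs, and 7.25 and 5.04 in library 2.

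The calls in the integrated stress response rested largely on library 2. Chac1 and Nupr1 were proposed as markers of these cells from earlier results on the same cells, so their direction is not independent evidence. Of 34 tested genes of the list, 5 were higher (Nupr1, Chac1, Asns, Atf5 and Mthfd2) and none was lower, with a median of 0.50, 0.19 in library 1 and 0.54 in library 2. The summed list stood at 2743 CPM (2478 to 3029) against 2328 in library 1 and 3117 (2998 to 3240) against 2166 in library 2. DESeq2 and the fit without the block each called 0 of the list.

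Chac1 (ENSMUSG00000027313, chromosome 2, 119351229 to 119354381, plus strand) encodes an enzyme that breaks down glutathione. It had 0 UMIs in members of library 1, which allows up to 21.0 CPM, against 1.09 in other cells, so a difference was not detectable there. In library 2 it had 47 UMIs in members, or 56.8 CPM, against 11.5 (joint log2 fold change 2.31, SE 0.41, edgeR adjusted p 2.11e-06). A Chac1 UMI was found in 32 of 129 members of library 2 (24.8%) and 5.14% of other corneal cells, and at a common depth of 2000 UMIs in 9.65% of 114 and 1.59% of 1508. Nupr1 (ENSMUSG00000030717, chromosome 7, 126623249 to 126630861, minus strand), a small stress-induced chromatin protein, had 28.0 CPM and 11.9 in library 1, on 4 member UMIs, and 104 and 23.8 in library 2 (2.04, SE 0.30, adjusted p 2.25e-09).

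Genes of amino acid and folate metabolism completed the calls. Asns, asparagine synthetase, had 21.0 and 21.2 CPM in library 1, on 3 member UMIs, so its level in members there is imprecise. It had 84.6 and 26.3 in library 2, with a joint log2 fold change of 1.47 (SE 0.30, edgeR adjusted p 0.000101). Atf5 had 35.0 and 26.0, then 78.5 and 32.0 CPM (1.18, SE 0.29). Mthfd2, a mitochondrial folate enzyme, had 35.0 and 23.1, then 104 and 46.6 (1.11, SE 0.29). The upstream factors were not called: Atf4, named after its values were seen, had 203 and 177, then 274 and 164 CPM (0.57, SE 0.23, adjusted p 0.289), and Ddit3 (CHOP) had 0 and 10.5, then 19.3 and 11.2 (0.54, SE 0.50). Of 20 tested aminoacyl-tRNA synthetases 1 was called, Cars, at 0.97 (SE 0.28, adjusted p 0.0294). None of 16 genes of the unfolded protein response was called (median -0.02).

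**Figure D2:**
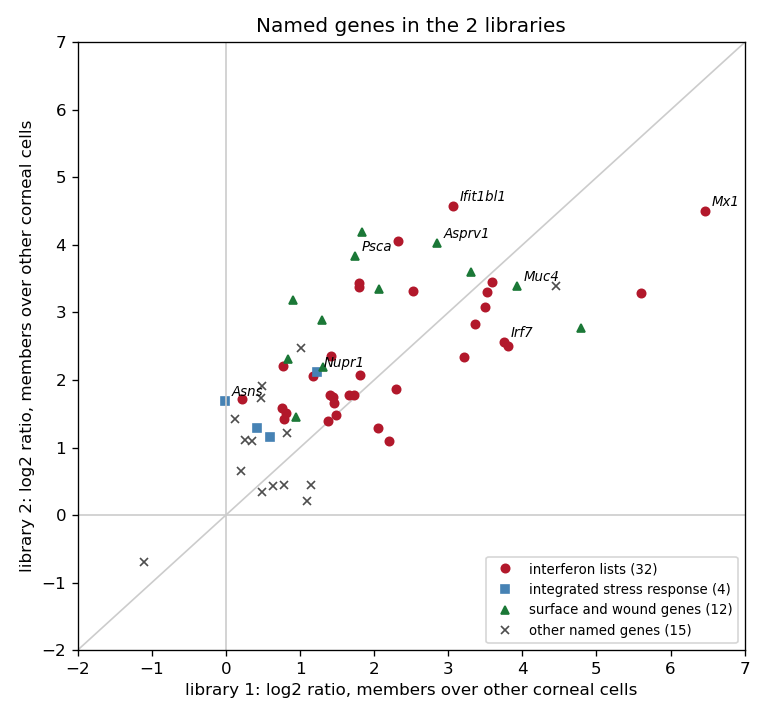
Log2 ratio of members over other corneal cells in library 1 (x axis) and library 2 (y axis) for 63 of the 65 named genes, coloured by list; the diagonal marks equal ratios. Chac1 and Fosl1 are left out because members of library 1 had 0 UMIs. Most interferon genes lie above 0 on each axis, and Asns lies near 0 in library 1, on 3 member UMIs.

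Genes of the corneal surface and of wounds were higher too, in few cells. Of 14 tested surface differentiation genes 5 were higher (Muc4, Muc20, Cldn4, Krt78 and Krt13), with a median of 0.62. Of 13 wound and alarmin genes 2 were higher (Krt6b and Sprr1a), with a median of 0.92 that was -0.04 in library 1 alone and 1.08 in library 2. Asprv1 (ENSMUSG00000033508, chromosome 6, 86628164 to 86629710, plus strand), a protease of terminally differentiating epithelium, had 126 CPM and 17.4 in library 1 and 1370 and 83.6 in library 2. Its log2 fold change was 3.69 (SE 0.25, edgeR adjusted p 5.24e-46). Only 3 and 25 members held an Asprv1 UMI, and the 5 richest members of library 2 held 62.1% of its UMIs there. Muc4, a membrane mucin of the tear-facing surface, had 175 and 11.5, then 251 and 23.9 CPM (3.62, SE 0.27), with a UMI in 6 and 20 members.

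Most other genes of this kind were found in few members as well. Psca, of the Ly6 family, had 42.0 and 12.6, then 916 and 64.1 CPM (3.40, SE 0.28), and in library 1 all its 6 member UMIs came from 1 cell. Nccrp1 (3.59, SE 0.30), the serine protease gene Prss27 (3.58, SE 0.39) and Ly6g6c (3.21, SE 0.29) had a UMI in 16, 18 and 18 members of library 2. Krt6b, a wound keratin, had 420 and 170, then 1029 and 139 (2.23, SE 0.22), in 6 and 38 members, and was less concentrated: its 5 richest members of library 2 held 39.9% of its UMIs there. Krt13, a mucosal keratin that is also a conjunctival marker, had 147 and 78.5, then 364 and 40.0 (2.38, SE 0.38). By comparison Irf7, at 268 CPM in library 2, was spread over 91 members, while Mx1 had 63.6% of its 33 UMIs there in 5 members.

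**Figure D3:**
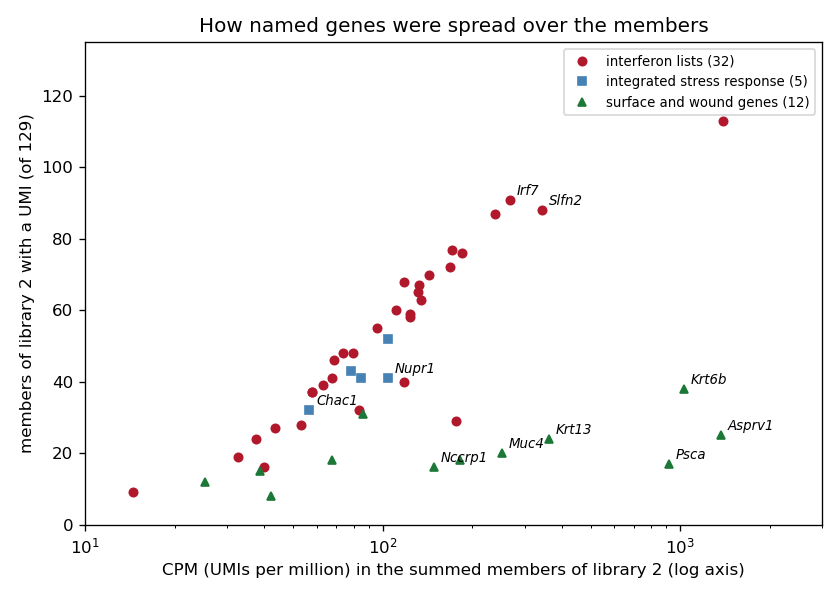
Number of the 129 members of library 2 with a UMI of each gene (y axis) against its level in the summed members, in CPM on a log axis (x axis). Interferon genes rise with level, with Irf7 in 91 members, while surface and wound genes such as Asprv1 (25 members) and Psca (17) reach higher levels in few cells.

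These surface RNAs came from a minority of the members. Cells with at least 5 UMIs of Asprv1, Muc4, Nccrp1 and Psca together, a definition chosen after the values were seen, made up 17 of 129 members of library 2 (13.2%, 7.87 to 20.3%) and 23 of 1692 other corneal cells (1.36%). In library 1 they were 3 of 36 (8.33%) and 15 of 2268 (0.661%). Read the other way, 17 of the 40 such corneal cells of library 2 were members (42.5%, 27.0 to 59.1%), against 112 of 1781 other corneal cells (6.29%). With these cells left out of each class edgeR called 114 genes higher and 0 lower, with 209 lower at an unadjusted p under 0.05. The antiviral list then still held 27 calls and the stress list 5, while the surface list held 0 and the wound list 1. Loss of the 4 defining genes follows from the definition.

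The surface-rich members differed from the remaining members of library 2. They had 13097 CPM of the antiviral list against 8166, and 1420 of the stress list against 3419. Single interferon genes did not all follow the antiviral sum. Irf7 stood at 233 CPM against 275, Oasl2 at 305 against 324 and Slfn2 at 241 against 363, while Zbp1 stood at 225 against 162. G2 and mitosis genes stood at 1420 CPM against 8239, and Mki67, the proliferation marker, at 72.2 against 627. Krt12 stood at 43588 against 18237. In library 1 the 3 surface-rich members had 5565 CPM of the antiviral list against 6035, and 1789 of the stress list against 2778. G2 and mitosis genes stood at 398 CPM against 9741 there, Mki67 at 0 against 820 and Krt12 at 32200 against 16276. The 15 surface-rich other cells of library 1 had 5044 CPM of the antiviral list against 2908, and 2704 of the G2 and mitosis list against 9910. The pattern of library 2 was also seen outside the members: its 23 surface-rich other cells had 6459 CPM of the antiviral list against 3090, 1433 of the stress list against 2181, 3532 of the G2 and mitosis list against 10467, and 37570 of Krt12 against 17818. Chac1 was found in 4 of the 17 and 28 of the other 112.

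The mitotic programme was not called as changed. None of 35 tested G2 and mitosis genes and none of 28 S phase genes passed in either direction, with medians of -0.30 and -0.11 (277 genes of the whole table were lower at an unadjusted p under 0.05). The summed G2 and mitosis list stood at 9412 CPM (8916 to 9929) against 9838 in library 1 and 7211 (7029 to 7396) against 10328 in library 2. At 2000 UMIs per cell, Mki67 was detected in 84.0% of 25 members and 68.7% of 2014 other cells of library 1, and in 55.3% (45.7 to 64.6%) of 114 and 70.4% (68.0 to 72.7%) of 1508 in library 2. Without thinning the shares were 77.8% and 86.7%, then 69.8% and 88.8%. Top2a gave 76.0% and 75.8%, then 64.0% and 79.2% at the common depth. Thinning left out 11 members of library 1 and 15 of library 2 as too shallow. Ccnb1 gave 20.0% and 24.9%, then 16.7% and 24.5%, and Pcna was in 3 of 25 members of library 1 against 15.1% of others, then 12.3% and 15.4%. In library 2 the 112 members that were not surface-rich also stood below the 1669 other corneal cells that were not, at 8239 against 10467 CPM for the G2 and mitosis list and 627 against 813 CPM for Mki67.

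Other programmes gave few calls. Of the NF-kB targets 2 of 10 were higher, the inhibitor gene Nfkbia at 0.80 (SE 0.21) and Bcl3 at 2.17 (SE 0.38). Socs3, a brake on cytokine signalling that also stands on the limbal list, passed at 1.15 (SE 0.33). Of 21 tested corneal epithelial genes 4 were higher: the factor gene Elf3 at 1.35 (SE 0.25), the growth factor gene Areg at 1.63 (SE 0.41), and Slurp1 and Lypd2, both of the Ly6 family, at 0.64 (SE 0.15) and 0.44 (SE 0.12). Of 18 immediate early genes Fosl1, Ier2 and Klf4 were higher, at 2.20 (SE 0.50), 0.67 (SE 0.18) and 0.56 (SE 0.16). This list stood at 15878 CPM in members and 9781 in other cells of library 1, and at 5271 and 5154 in library 2, so the libraries differed more than the classes in library 2. Cdkn1a, the p53 target that arrests the cycle, passed at 1.04 (SE 0.25), the chaperone gene Hspb1 at 0.46 (SE 0.14) and the sterol gene Sc5d at 0.91 (SE 0.27). These calls were weakly held. DESeq2 called 0 genes of the NF-kB, corneal epithelial, immediate early, p53, heat shock and cholesterol lists, and the fit without the block called 1 NF-kB target and 1 corneal epithelial gene. Hspb1 and Sc5d each lost their call in 11 of 14 alternative settings, Ier2 and Lypd2 in 8, Klf4 in 7, and Slurp1 and Socs3 in 6. The cell death, NRF2, clock and growth factor lists held no call in 15, 11, 15 and 9 tested genes.

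The 3 genes that were lower had no list in common. Lgals7, the epithelial galectin-7 gene, had 189 CPM and 406 in library 1 and 227 and 367 in library 2 (log2 fold change -0.81, SE 0.22, edgeR adjusted p 0.0132). Tpm1 and Ahi1 fall outside the naming rule and are given because the count is small. Tpm1, a tropomyosin gene, had 0 UMIs in members of library 1 (others 24.2 CPM) and 7.25 CPM in library 2 (others 24.2). Ahi1 had 0 UMIs in members of each library, which allows up to 21.0 and 3.62 CPM, against 7.66 and 9.80 in other cells. None of the 3 was called by DESeq2 or without the block.

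Levels below and above the threshold showed how sharply the members were set off. In library 2 the antiviral list stood at 2433 CPM in the 999 corneal cells without a UMI of the selecting genes and at 3511 in the 537 cells of the next band. It stood at 5483 in the 156 cells just under the threshold, 7432 in the lower 64 members and 10497 in the upper 65. The list thus rose through the bands with no step at the threshold. In library 1 the 5 values were 2697, 3399, 4781, 4647 and 7263, so members in the lower band did not exceed the cells just under the threshold. The stress list followed a flatter course in library 2, at 2005, 2262, 2615, 2672 and 3596 CPM. Chac1 stood at 6.94, 14.8, 21.6, 42.0 and 72.7 CPM there and Nupr1 at 9.68, 30.6, 69.4, 67.6 and 143. Library 1 held only 18 cells in each member band. Its stress list stood at 2296, 2371, 2812, 2426 and 3031 CPM. Its Chac1 stood at 0.91, 1.71, 0, 0 and 0. The zeros allow up to 10.8, 54.2 and 49.3 CPM, so a rise of Chac1 below these limits was not detectable. Its Nupr1 stood at 11.3, 14.2, 5.86, 58.8 and 0, on 4 member UMIs, and the last value allows up to 49.3. Since detection of the selecting genes depends on depth, bands with few such UMIs mix cells with and without a response.

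**Figure D4:**
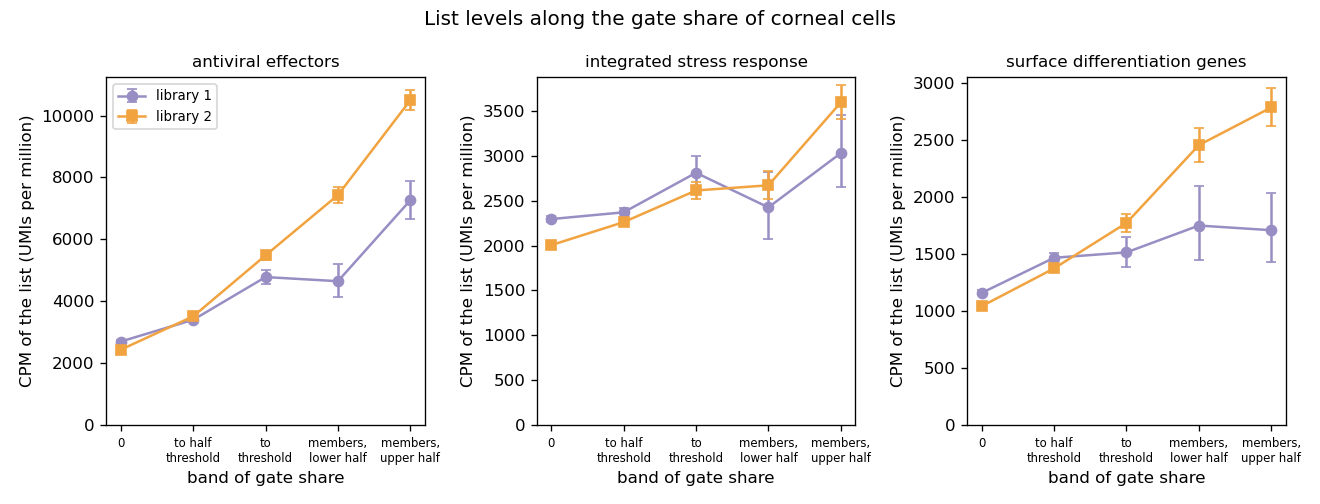
Summed level of 3 gene lists (CPM, y axes from 0) in bands of corneal cells ordered by their share of the selecting genes, from 0 UMIs to the upper members, for library 1 (purple) and library 2 (orange); error bars are exact Poisson 95% intervals. The antiviral list rises from 2433 to 10497 CPM in library 2 without a step at the threshold.

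Members varied among themselves. In library 2, over 129 members, Spearman's rho between the share of the selecting genes and that of the antiviral list was 0.50. It was 0.30 with the stress list. Between antiviral and stress shares it was 0.06, between antiviral and surface shares 0.23, and between stress and surface shares -0.29. In library 1, over 36 members, the values in the same order were 0.51, 0.21, -0.08, -0.004 and -0.16. All shares have the same denominator, the cell's total UMIs, and are given as a description. In library 2 Chac1 was found in 32 members and Nupr1 in 41, with 19 holding both. The members had a median of 16 UMIs of the stress list in library 2, so its share per cell is imprecise.

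The response was not confined to corneal cells. At the same threshold, 28 of 897 cells with Krt15 dominant in library 2 (3.12%, 2.08 to 4.48%) and 2 of 555 in library 1 (0.360%) qualified. Cells with mixed Krt12 and Krt15 gave 8 of 226 (3.54%) and 3 of 269 (1.12%). In library 2 the 28 Krt15-dominant cells had 13532 CPM of the antiviral list against 5376 in those below the threshold, and 10616 of the class I list against 4726. The gamma-inducible GTPases stood at 1953 against 149. The stress list stood at 1394 against 1522, Chac1 at 7.08 (1 UMI) against 0.66 and Nupr1 at 120 against 24.8. In the corneal members of that library the stress list had been 3117 against 2166. The stress list thus lay above the comparison cells in corneal members and not in the Krt15-dominant cells, a difference that was not tested.

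The calls differed in how far they held under other settings. Of the 32 named genes of the interferon lists, those that kept their call under every alternative in which they were tested included Bst2, Eif2ak2, Gbp2, Ifih1, Igtp, Irf9, Oasl1, Parp14, Parp9, Stat2 and Zbp1. Mx1 did too, but it was tested only through its level in members. DESeq2 lost 10 of the 32 and the fit without the block 14. All 5 named stress genes lost their call in both of these. Of 12 named surface and wound genes, 9 lost it without the block and 8 without the surface-rich cells. Not all of the 12 could be tested without those cells, so the rest did not all keep a call. Each library is 1 sample and the labels do not say whether they came from separate animals. With 1 residual degree of freedom, the p-values rest on UMI counts and on a spread estimated over many genes together. They measure neither the spread between animals nor that between cells.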

How the data were processed

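Raw UMI counts were deposited as 1 matrix of 31053 genes by 6752 barcodes, covering both libraries. The authors made these counts with Cell Ranger 3.1.0 on GRCm38 (mm10), and used Seurat 5.0.0, per the submitters' processing notes. Libraries 1 and 2 held 19001107 and 18030874 UMIs. Of all barcodes, 475 had under 500 genes and 89 more had 20% or more mitochondrial UMIs, and these were left out. Cells were not removed as doublets. Leaving out the top 3% of Scrublet scores (scanpy 1.11.5) was an alternative.

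UMI counts were summed per library for members and other corneal cells. The 4 sums were fitted with edgeR 4.0.16 (quasi-likelihood, robust, TMM, filterByExpr, library as block) in R 4.3.3, with Benjamini-Hochberg adjustment over all genes tested and a threshold of 0.05. The 4 selecting genes, 1821 genes of the X and Y chromosomes, 42 without a chromosome match and mitochondrial genes were not tested. DESeq2 1.42.0 was an alternative. Printed CPM are raw UMIs relative to all UMIs of a sum, with no TMM factor. The standard error is the log2 fold change over the root of the F statistic. The fit was tested on simulated data.

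The 33 gene lists held 562 genes, of which 559 were in the matrix. Members, lists and markers were chosen with earlier results of these data known. Named genes were Chac1 and Nupr1, the 15 largest called changes per direction of equal sign in each library and at 50 CPM or more in the higher class, and up to 5 called genes per list and direction. Other settings were no block, no filter, other size factors, other thresholds for members, mitochondrial share and Krt12, matched or thinned depth, and each library left out. Added after seeing the data were members with at least 3 UMIs of the selecting genes, and classes without surface-rich cells. Gene positions are from GENCODE M21 (GRCm38). Results of 1 gene are not reported here.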

Additional observations from a re-analysis of the deposited data

Results flagged for a closer look

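Barcodes left out by the cell filters also carried RNA of the 4 selecting genes, a signal in data that no comparison used. The 271 barcodes removed from library 1 held 51 such UMIs, or 224 CPM (exact Poisson 95% interval 167 to 295). The 293 removed from library 2 held 37, or 158 CPM (111 to 218). A count of 0 would allow 13.2 and 12.8 CPM. Of the removed barcodes, 20 in library 1 and 19 in library 2 lay above the member threshold. At their depth a few UMIs suffice for that.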

How the results depend on the processing

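Counts of genes with a library left out have no value, since no residual degree of freedom remains. Against 223 genes higher and 3 lower, DESeq2 gave 74 and 0, no replicate block 81 and 0, the top 2% 146 and 1, thinning to 2000 UMIs 96 and 0, and classes without surface-rich cells 114 and 0. Higher counts within 1.5 times came with lower counts of 1 without the filter, 9 for the top 8%, 18 for the top 4% within each library, 8 for a Krt12 share above 0.9, 10 with matched UMIs, 5 without the top doublet scores and 5 for members with at least 3 UMIs of the selecting genes. The cause was not tested. The antiviral median was 1.87 for the top 8%. With each library left out in turn, list medians ranged from 0.19 to 0.54 (stress), -0.041 to 1.08 (wound) and 0.77 to 1.29 (class I). Genes ranged from -0.016 to 1.68 (Asns), -4.01 to 2.30 (Chac1) and -5.60 to 2.35 (Fosl1). The low values came from library 1 alone, for Asns on 3 member UMIs. For Chac1 and Fosl1 they came from 0 member UMIs and a prior count. Member shares were 0.564% and 3.84% for the top 2%, and 3.91% and 13.2% for the top 8%. Without thinning, cells with a UMI were 41.7% of members and 47.2% of others in library 1, and 31.0% and 46.5% in library 2, for Ccnb1. In others of library 1, then members and others of library 2, they were 86.7%, 69.8% and 88.8% for Mki67, 32.1%, 30.2% and 35.3% for Pcna, and 89.0%, 75.2% and 90.8% for Top2a. Of 1026 values for the 65 named genes, 815 kept their call or, with a library left out, stayed close in size. Another 168 lost significance, 40 moved in size and 3 reversed in sign. RLE scaling changed no call. Depth limits library 1, with 142901 member UMIs.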
